A study of Mus musculus with 18 samples.

Results

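Tubulin mRNAs, which encode the α and β subunits of microtubules, were followed together with *Ttc5*, whose protein marks these mRNAs for decay while they are being translated. The 10 genes were taken by symbol and matched to the Ensembl identifiers of the deposited count table. They comprised 4 α-tubulin genes (*Tuba1a*, *Tuba1b*, *Tuba1c* and *Tuba4a*), 5 β-tubulin genes (*Tubb2a*, *Tubb2b*, *Tubb3*, *Tubb4b* and *Tubb5*) and *Ttc5*. These are 10 of the 55414 features in the table, and all 10 were among the 17901 features with enough counts to be tested. The libraries were made from rRNA-depleted total RNA of N2A (Neuro-2a) cells, a mouse neuroblastoma line, 72 h after siRNA transfection. The 18 libraries form 6 groups of 3. Cells received siRNA A or siRNA B against *Fmr1* (*Fmr1* KD, for knockdown), against *Zfp598* (*Zfp598* KD) or without a target (Scramble KD). The A and B siRNAs of a condition are independent siRNAs, and the sources used here do not say what, if anything, groups with the same letter share. Every group, the controls included, was transfected, so no untransfected cells were compared here. *Fmr1* encodes FMRP, an RNA-binding protein that represses translation, and *Zfp598* encodes an E3 ubiquitin ligase that senses collided ribosomes and starts no-go decay of the mRNA. The study asked which mRNAs change in level when either protein is depleted.

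Tubulin mRNAs are subject to a separate cotranslational decay. When cells hold too much unpolymerised tubulin, TTC5 recognises the first residues of a nascent tubulin chain as it leaves the ribosome, Met-Arg-Glu-Ile in β-tubulins and Met-Arg-Glu-Cys in α-tubulins. TTC5 then brings in SCAPER, which recruits the CCR4-NOT deadenylase, and the mRNA loses its poly(A) tail and is degraded. *Tuba1a*, *Tubb2a*, *Tubb2b* and *Tubb3* are the isotypes known to be enriched in neurons, whereas *Tuba1b*, *Tuba1c*, *Tubb4b* and *Tubb5* are expressed in most dividing cells.

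The sequences that encode the recognised residues are shown here as the first 30 coding bases in GRCm39 (GENCODE M39), 5′ to 3′ on the coding strand, with the first 4 codons in capitals. *Tuba1a* and *Tuba4a* represent the α genes, *Tubb2b*, *Tubb3*, *Tubb4b* and *Tubb5* the β genes most often named below, *Tubb2a* the close relative of *Tubb2b*, and *Ttc5* a gene without the signal.
Tuba1a: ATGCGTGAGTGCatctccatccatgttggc
Tuba4a: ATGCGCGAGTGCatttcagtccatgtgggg
Tubb2a: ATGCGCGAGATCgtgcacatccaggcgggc
Tubb2b: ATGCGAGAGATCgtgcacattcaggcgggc
Tubb3: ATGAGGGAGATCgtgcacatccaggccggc
Tubb4b: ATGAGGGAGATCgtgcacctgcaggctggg
Tubb5: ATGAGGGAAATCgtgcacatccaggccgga
Ttc5: ATGATGGCTGATgaagaggaagaagcgaag

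All 4 α members encoded Met-Arg-Glu-Cys and all 5 β members encoded Met-Arg-Glu-Ile, while *Ttc5* encoded neither. Among 21483 protein-coding genes of the annotation, 8 (0.0372%) began with the β form and all 8 had tubulin symbols, and 9 (0.0419%) began with the α form, 8 with tubulin symbols and the predicted gene *Gm49450*. The exons of *Gm49450* overlap those of *Tuba1a* by 473 bases and those of *Tuba1b* by 426 bases on the same strand. The start codons lie at chr15:98851332-98851334 (minus strand) for *Tuba1a*, chr1:75195837-75195839 (minus) for *Tuba4a*, chr13:34261910-34261912 (minus) for *Tubb2a*, chr13:34314214-34314216 (minus) for *Tubb2b*, chr8:124138345-124138347 (plus) for *Tubb3*, chr2:25114600-25114602 (minus) for *Tubb4b*, chr17:36148943-36148945 (minus) for *Tubb5* and chr14:51022943-51022945 (minus) for *Ttc5*. *Tuba1b*, *Tuba1a* and *Tuba1c* are neighbours on chromosome 15, and *Tubb2a* and *Tubb2b* are neighbours on chromosome 13. The coding sequences of the α members were 84.8% to 98.3% identical to each other, those of the β members 81.5% to 96.5%, and α with β 53.6% to 55.9%.

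Because the genes are this alike, the share of each transcript that also occurs in other genes bears on the counts. Of all 100-base windows of the transcript, 74.3% of those of *Tuba1a*, 46.1% of *Tuba1c* and 38.5% of *Tuba1b* were also present in another gene, mostly each other and processed copies. For *Tubb2a* the share was 80.1% and for *Tuba4a* and *Tubb5* it was 38.2% each, and there the leading partner was an antisense neighbour, *Bphl*, *Stk16* and *Flot1*, respectively. For *Tubb4b* it was 31.0%, mostly the pseudogene *Tubb4b-ps1*, which held only 1 to 17 counts per library. *Tubb2b* (10.1%), *Ttc5* (2.72%) and *Tubb3* (0 of 3107 windows) were the most distinct. How reads with several matches were counted, and whether strand was used, are not given in the sources used here, so the division of reads among *Tuba1a*, *Tuba1b* and *Tuba1c*, and the counts of *Tubb2a*, *Tuba4a* and *Tubb5*, are uncertain to that extent.

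Each library held 7674724 to 15414590 counts. The knockdowns were visible in the targeted mRNAs: *Fmr1* was at 60.2 ± 6.51 CPM (counts relative to library size, with TMM scaling; mean ± SD, n = 6) in Scramble KD and 22.4 ± 5.13 in *Fmr1* KD, and *Zfp598* was at 118 ± 9.49 in Scramble KD and 41.1 ± 5.40 in *Zfp598* KD. The sympathetic neuroblast marker *Hand2* (2444 to 4728 counts) was present in all 18 libraries. The neurofilament genes *Nefl* and *Nefm* and the migrating-neuron gene *Dcx* were too low to be tested. There were 3 libraries that stood apart from the rest. *Fmr1* KD B1 had the highest count of 8 of the 9 matched pluripotency markers, among them *Nanog* (110 counts), *Zfp42* (102) and *Pou5f1* (34), of which *Zfp42* was at 0 in 16 libraries and *Pou5f1* in 15. A single feature took 15.2% and 25.8% of the counts in *Zfp598* KD A2 and A3, while the top feature took 5.00% to 11.1% in the other 16 libraries, with Scramble KD A1 the highest of these. Nothing in the sources used here states that the libraries of a group came from separate passages of cells, so the p-values measure the spread between these libraries. The data are bulk, so fewer cells of a kind and less RNA per cell cannot be told apart.

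In level, *Tubb5*, the main β-tubulin of dividing cells, was the most abundant of the 10 mRNAs and *Tuba1a* the most abundant α-tubulin. Per kilobase of exon, group means of *Tubb5* ran from 369 CPM per kb in *Fmr1* siRNA A to 729 in *Zfp598* siRNA A, and those of *Tuba1a* from 227 in Scramble siRNA B to 393 in Scramble siRNA A. *Tuba1b* (120.4 to 185) and *Tubb3* (97.8 to 160.1) followed, with ranges that overlapped. *Tubb4b* (52.2 to 100.3), *Tuba1c* (36.3 to 46.4), *Tubb2a* (32.6 to 52.8) and *Tubb2b* (20.8 to 40.9) came next. Of these, *Tuba1c*, *Tubb2a* and *Tubb2b* overlapped as neighbours, while *Tubb4b* overlapped *Tubb3* at its upper end and *Tubb2a* at its lower end. *Ttc5* (6.71 to 12.2) and *Tuba4a*, an isotype known from muscle, heart and platelets (1.25 to 2.12), were the lowest. The raw counts behind these levels were 48 to 181 for *Tuba4a*, 391 to 700 for *Ttc5*, 686 to 3586 for *Tubb4b* and 13040 to 36930 for *Tubb5*, so counting error is largest for *Tuba4a*. These counts carry no molecular identifiers, and their precision covers counting error only.

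The 6 siRNA groups differed in 9 of the 10 mRNAs by edgeR's quasi-likelihood F test over the groups (Benjamini-Hochberg adjusted p under 0.05), where 63.3% of all tested genes did. *Tuba1c* was the exception (adjusted p = 0.153, edgeR), although all 10 passed without Scramble KD A1 or without *Zfp598* KD A1. The ratio of the highest to the lowest group mean was 1.98 for *Tubb5*, 1.97 for *Tubb2b*, 1.92 for *Tubb4b*, 1.82 for *Ttc5*, 1.73 for *Tuba1a*, 1.70 for *Tuba4a*, 1.64 for *Tubb3*, 1.62 for *Tubb2a*, 1.53 for *Tuba1b* and 1.28 for *Tuba1c*. Both ends of the range were Scramble KD groups for *Tuba1a* and *Tubb3*, with siRNA A the highest group and siRNA B the lowest. *Fmr1* siRNA A was the lowest group for *Tuba1b*, *Tuba1c*, *Tubb2a*, *Tubb4b* and *Tubb5*. The plot of CPM by siRNA group shows the libraries behind these means.

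With the groups of each gene put in order of their mean, most neighbours did not differ. For *Ttc5* the order was *Zfp598* A, *Fmr1* A, *Zfp598* B, Scramble A, Scramble B and *Fmr1* B, and none of the 5 neighbouring pairs passed (edgeR, 6-group fit), although the ends differed by 0.85 on the log2 scale (adjusted p = 3.8e-05). None of the 5 pairs passed for *Tuba1b*, *Tuba1c* or *Tuba4a* either. *Tubb5* had 2 steps that passed, from Scramble B down to *Fmr1* B (adjusted p = 0.0337) and from *Zfp598* B down to *Fmr1* A (adjusted p = 1.2e-05), and *Tubb4b* had 2, from Scramble B to Scramble A (adjusted p = 0.0137) and from *Fmr1* B to *Fmr1* A (adjusted p = 0.0494). For *Tubb3* the only such step set Scramble B below *Fmr1* A (adjusted p = 2.8e-05), and for *Tubb2a* it set *Fmr1* B below Scramble A (adjusted p = 0.00386). *Tuba1a* had steps from *Fmr1* B to *Fmr1* A (adjusted p = 0.0192) and on to Scramble B (adjusted p = 0.0417), and *Tubb2b* had one from *Fmr1* B to Scramble B (adjusted p = 0.00216).

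**Figure D1:**
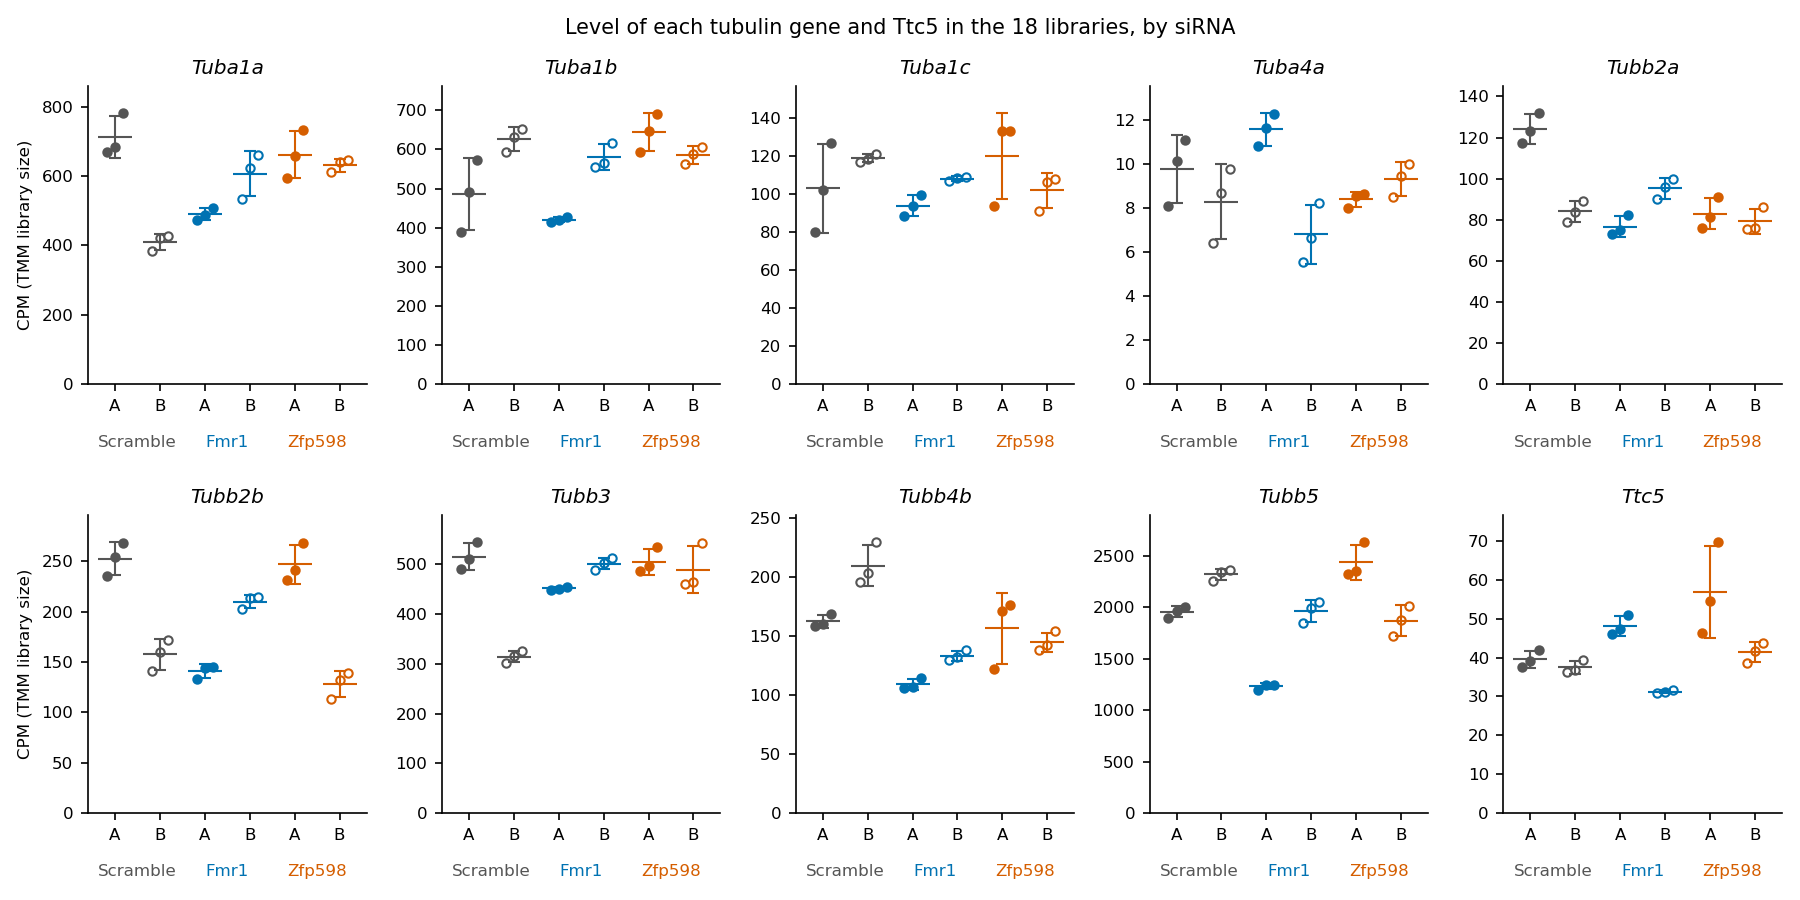
Level of each of the 10 mRNAs in CPM (y axis, own scale per panel) in the 6 siRNA groups (x axis); points are libraries, filled for siRNA A and open for siRNA B and sorted by value within a group, and bars give mean ± SD (n = 3). For *Tubb4b* all 6 *Fmr1* KD libraries (106 to 138 CPM) lie below all 6 Scramble KD libraries (158 to 229 CPM), while for *Tuba1a* and *Tubb3* the 2 Scramble KD groups lie apart from each other.

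*Tubb4b*, a broadly expressed β-tubulin, was lower in *Fmr1* KD. It was the only 1 of the 10 mRNAs to pass the test between the 6 *Fmr1* KD and the 6 Scramble KD libraries, where 6.54% of all tested genes passed in either direction and 3.8% passed as lower. *Tubb4b* was at 158, 159.9 and 169 CPM in Scramble siRNA A, and at 204, 196 and 229 CPM in Scramble siRNA B. It was at 106, 114 and 107 CPM in *Fmr1* siRNA A and at 129, 138 and 132 CPM in *Fmr1* siRNA B. All 6 *Fmr1* KD values were below all 6 Scramble KD values, a separation in the lower direction that 3.51% of tested genes showed. The log2 fold change was -0.62 (SE 0.112, 95% interval -0.85 to -0.39, adjusted p = 0.00212, edgeR), and the two-sided exact permutation test of 6 against 6 libraries gave p = 0.00216, the smallest it can give. Set against the Scramble siRNA of the same letter, each siRNA gave a decrease of like size, -0.57 (SE 0.104, adjusted p = 0.000367) for siRNA A and -0.65 (adjusted p = 0.00011) for siRNA B. The difference between these changes was -0.08 (95% interval -0.39 to 0.23, edgeR). With all 6 Scramble KD libraries as controls both passed but were less alike, -0.76 (adjusted p = 3.6e-06) for siRNA A and -0.47 (adjusted p = 0.000945) for siRNA B by edgeR. The pooled call was kept without any single library (-0.66 to -0.55, highest adjusted p = 0.00778). With the 3 libraries of each siRNA summed to 1, which leaves 2 against 2, the change was -0.63 (adjusted p = 0.999) and 0 of all tested genes passed by edgeR. Both siRNA comparisons share their controls with the *Zfp598* comparisons below.

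*Tubb5* was lower in *Fmr1* siRNA A and differed less in siRNA B. It was at 2000.5, 1898 and 1967 CPM in Scramble siRNA A and at 1199, 1249.3 and 1249.5 CPM in *Fmr1* siRNA A. In Scramble siRNA B it was at 2257, 2340.4 and 2361 CPM, and in *Fmr1* siRNA B at 1845, 2053 and 1991 CPM. The log2 fold change was -0.67 (SE 0.0800, adjusted p = 3.9e-06) for siRNA A and -0.24 (adjusted p = 0.0337) for siRNA B by edgeR, and the changes differed by 0.42 (adjusted p = 0.0093). Over both siRNAs the change of -0.42 (SE 0.144, 95% interval -0.72 to -0.12) had an adjusted p of 0.0854 by edgeR, with an exact permutation p of 0.0238 for 6 against 6 libraries. It passed without *Fmr1* KD B2 (-0.50, adjusted p = 0.0462). The siRNA B call was lost without Scramble KD A3, B1, B2 or B3 or without *Fmr1* KD A1, A2, B1 or B3 (-0.25 to -0.19, highest adjusted p = 0.152), and without the 3 libraries that stood apart it was -0.19 (adjusted p = 0.0694). It was also lost against all 6 Scramble KD libraries (-0.12, adjusted p = 0.259).

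*Tuba1a* and *Tubb2b*, 2 of the 4 neuron-enriched isotypes, were lower with *Fmr1* siRNA A and higher with *Fmr1* siRNA B than in the same-letter controls. Against the Scramble siRNA of the same letter, 5 of the 10 mRNAs were lower and 0 higher in *Fmr1* siRNA A, where 23.6% of all tested genes passed (13.6% lower, 10% higher). In *Fmr1* siRNA B, 2 were lower and 3 higher, where 22.7% of tested genes passed (11.3% in each direction). *Tubb2b* was at 254, 268 and 236 CPM in Scramble siRNA A and at 133, 145 and 144 CPM in *Fmr1* siRNA A, a log2 fold change of -0.84 (SE 0.0911, adjusted p = 1.2e-06, edgeR). In the B groups the order was the other way, with 160.3, 172 and 141 CPM in Scramble siRNA B and 202, 214 and 213 CPM in *Fmr1* siRNA B (0.41, adjusted p = 0.00216). *Tuba1a*, the α-tubulin most abundant in developing neurons, was at 782, 684 and 670.4 CPM in Scramble siRNA A and at 473, 489 and 509 CPM in *Fmr1* siRNA A (-0.54, SE 0.0926, adjusted p = 0.000217). It was at 427, 422 and 385 CPM in Scramble siRNA B and at 534, 624 and 660.3 CPM in *Fmr1* siRNA B (0.56, adjusted p = 0.000168). Thus for *Tuba1a* and *Tubb2b* the *Fmr1* KD libraries lay below their controls in the A groups and above them in the B groups, with no overlap in either. Of all tested genes, 20.1% lay wholly below their controls in the A groups and 21.9% wholly above them in the B groups.

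*Tubb3*, the β-tubulin used as a marker of neurons, was at 315, 325 and 302 CPM in Scramble siRNA B and at 488, 511 and 501 CPM in *Fmr1* siRNA B (0.67, adjusted p = 2.7e-06, edgeR). In the A groups its change was -0.19 (adjusted p = 0.0831), which passed by DESeq2 (adjusted p = 0.0378) and without the 3 libraries that stood apart (adjusted p = 0.0474). *Tubb2a*, a close relative of *Tubb2b*, was at 118, 132 and 123 CPM in Scramble siRNA A against 74.8, 82.5 and 72.9 CPM in *Fmr1* siRNA A (-0.70, adjusted p = 6.9e-06), and had a change of 0.18 in the B groups that did not pass. For 5 of the 6 genes with different changes the siRNA B change was the higher: the difference of the changes was 1.25 for *Tubb2b* (adjusted p = 8.0e-07), 1.10 for *Tuba1a* (SE 0.131, adjusted p = 4.8e-06), 0.88 for *Tubb2a*, 0.86 for *Tubb3* and 0.42 for *Tubb5* by edgeR, while for *Ttc5* it was -0.55. This difference passed for 6 of the 10 mRNAs and for 21.8% of all tested genes (12.2% with the siRNA B change higher and 9.65% with it lower). Against all 6 Scramble KD libraries, the *Tuba1a* changes were -0.14 in *Fmr1* siRNA A (adjusted p = 0.206) and 0.16 in siRNA B (adjusted p = 0.16), and the *Tubb2b* change in siRNA B was 0.07 (adjusted p = 0.564), so these 3 calls rest on the Scramble siRNA used as control. In that setting *Tubb3* had the same sign with both siRNAs, 0.17 in siRNA A (adjusted p = 0.0645) and 0.32 in siRNA B (adjusted p = 0.00168), and so did *Tubb2a*, -0.41 in siRNA A (adjusted p = 0.000369) and -0.10 in siRNA B (adjusted p = 0.393). The difference of the changes of *Tuba4a* passed only without Scramble KD B2 (-0.68, adjusted p = 0.0429) or without the 3 libraries that stood apart (-0.70, adjusted p = 0.0402).

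The other α-tubulins did not pass with *Fmr1* KD, pooled or by siRNA. Pooled over siRNAs, the log2 fold changes were -0.15 for *Tuba1b*, -0.14 for *Tuba1c* and 0.03 for *Tuba4a*, none of which passed. *Tuba1b* in the A groups was at 574, 389.7 and 492 CPM in Scramble KD and at 414, 419.7 and 427 CPM in *Fmr1* KD, a change of -0.21 that did not pass. Scramble KD A2 was the lowest of these 6 libraries, and without it the change was -0.34 (adjusted p = 0.00853, edgeR), while against all 6 Scramble KD libraries it was -0.39 (adjusted p = 0.00258). *Tuba1c* in the same libraries was at 127, 80.2 and 102 CPM in Scramble KD and at 99.4, 88.4 and 93.8 CPM in *Fmr1* KD, with overlap, and its change was -0.13. The median log2 fold change of the 10 mRNAs was -0.14 over both siRNAs, -0.37 for siRNA A and -0.12 for siRNA B, beside 0.00, 0.01 and 0.00 for all tested genes.

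*Ttc5* did not pass over both *Fmr1* siRNAs, and its changes with the 2 siRNAs had opposite signs. It was at 41.8, 37.6 and 39.1 CPM in Scramble siRNA A and at 39.3, 36.8 and 36.3 CPM in Scramble siRNA B, the smallest difference between the Scramble siRNAs among the 10 mRNAs (log2 difference -0.08, 95% interval -0.31 to 0.15). It was at 47.3, 46.1 and 50.9 CPM in *Fmr1* siRNA A and at 31.1, 30.9 and 31.6 CPM in *Fmr1* siRNA B. The changes against the same-letter Scramble siRNA were 0.28 (SE 0.110, adjusted p = 0.0668) and -0.27 (adjusted p = 0.0928), neither past the threshold, while the difference between them was -0.55 (adjusted p = 0.0145, edgeR) and the direct difference of *Fmr1* siRNA B from siRNA A was -0.63 (SE 0.110, adjusted p = 0.00026). Against all 6 Scramble KD libraries both changes passed, 0.32 (adjusted p = 0.0128) and -0.30 (adjusted p = 0.0318). They also passed against the same-letter controls without *Zfp598* KD A1 (adjusted p = 0.0201 and 0.0367) or without *Zfp598* KD A3 (adjusted p = 0.0162 and 0.0301), libraries that enter through the shared estimate of the spread, the scaling and the number of genes tested. Without the 3 libraries that stood apart they were 0.29 (adjusted p = 0.0104) and -0.26 (adjusted p = 0.0465). Pooled, the change was 0.04 (95% interval -0.27 to 0.35, exact permutation p = 0.935).

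**Figure D2:**
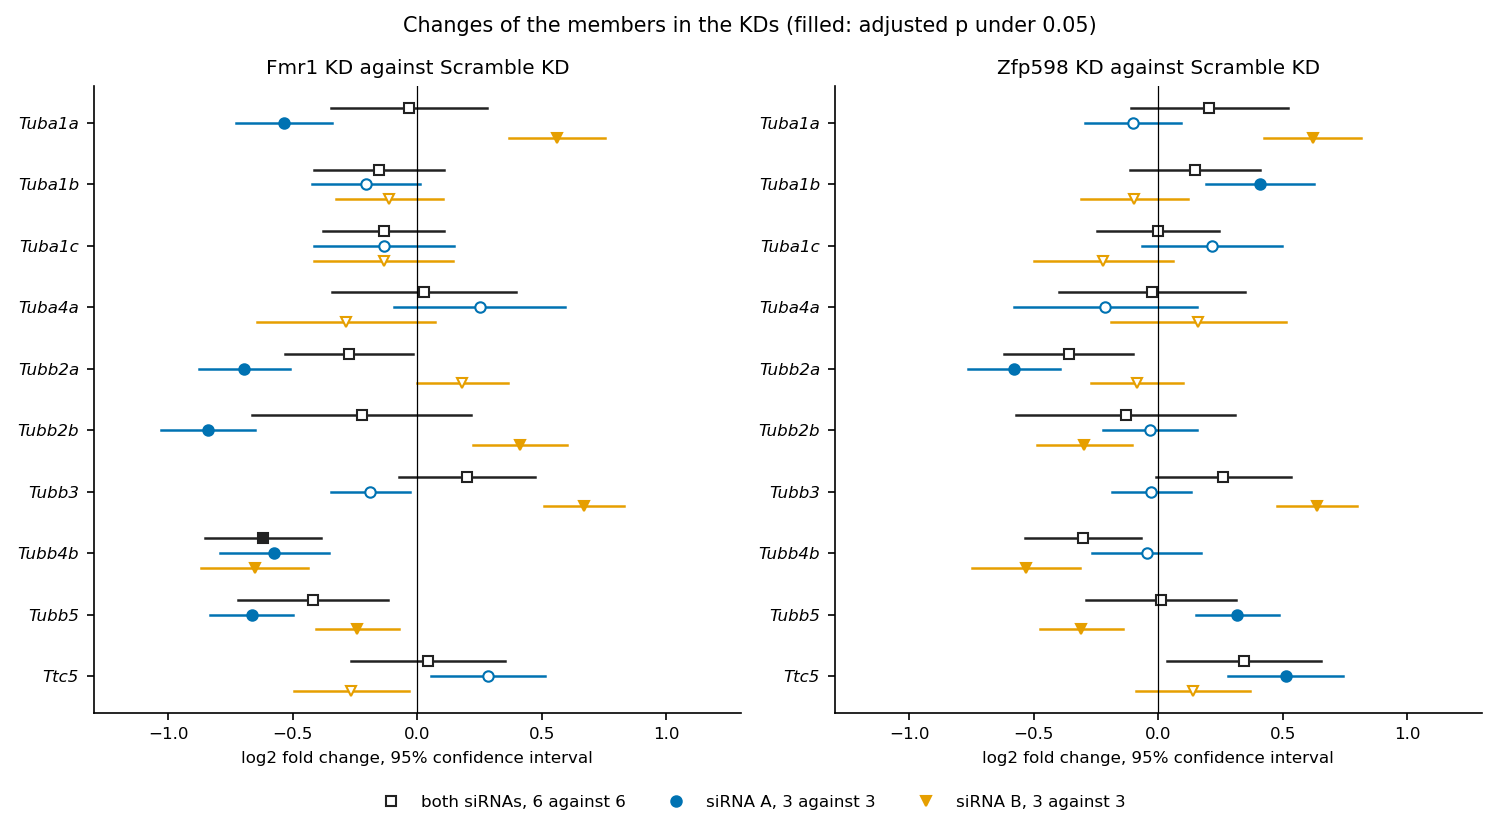
Log2 fold change (x axis) of the 10 mRNAs (y axis) in *Fmr1* KD (left) and *Zfp598* KD (right) against Scramble KD, with 95% intervals from edgeR, over both siRNAs and for siRNA A and siRNA B each against the same-letter Scramble siRNA; filled symbols have an adjusted p under 0.05. *Tubb4b* is below 0 in all 3 *Fmr1* comparisons, *Tuba1a* and *Tubb2b* are on opposite sides of 0 for *Fmr1* siRNA A and B, and *Ttc5* is above 0 in *Zfp598* siRNA A.

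*Zfp598* KD changed 0 of the 10 mRNAs over both siRNAs by edgeR, where 1.96% of all tested genes passed, and DESeq2 also called 0, while 3 had an unadjusted p under 0.05. Those 3 were *Tubb2a*, *Tubb4b* and *Ttc5*. *Ttc5* ranged from 36.3 to 41.8 CPM (median 38.4) in the 6 Scramble KD libraries and from 38.6 to 69.6 CPM (median 45.0) in the 6 *Zfp598* KD libraries, so the groups overlapped. Its log2 fold change was 0.34 (SE 0.149, 95% interval 0.03 to 0.65, adjusted p = 0.225, edgeR), with an exact permutation p of 0.0152. *Tubb2a* had a change of -0.36 (adjusted p = 0.128, exact permutation p = 0.0433) and *Tubb4b* one of -0.30 (adjusted p = 0.152, exact permutation p = 0.0346). These exact p-values are among 20 computed, 10 genes in 2 comparisons, and are not adjusted. They also treat the 6 libraries of a condition as exchangeable, although these come from 2 siRNAs. *Tubb3* (0.26), *Tuba1a* (0.20), *Tuba1b* (0.15), *Tubb2b* (-0.13), *Tubb5* (0.01), *Tuba1c* (-0.00) and *Tuba4a* (-0.03) did not pass either. No single library, left out, brought any of the 10 past the threshold in this comparison.

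In *Zfp598* siRNA A, *Ttc5*, *Tuba1b* and *Tubb5* were higher and *Tubb2a* was lower than in Scramble siRNA A, 4 of 10 where 11.9% of all tested genes passed (6.3% higher and 5.64% lower). *Ttc5* was at 46.3, 54.6 and 69.6 CPM against 37.6 to 41.8 CPM in Scramble siRNA A, with a log2 fold change of 0.51 (SE 0.111, 95% interval 0.28 to 0.74, adjusted p = 0.00508, edgeR). The higher 2 of these 3 values were from the libraries *Zfp598* KD A2 and A3, in which a single feature took 15.2% and 25.8% of the counts. The call was kept without either of them alone (lowest change 0.35), but without the 3 libraries that stood apart the change was 0.22 (adjusted p = 0.292). The part of that feature in the result was not tested. *Tubb5* was at 2356, 2630.0 and 2319.7 CPM (0.32, adjusted p = 0.013) and *Tuba1b* at 594, 691 and 647 CPM (0.41, adjusted p = 0.0135). Neither call was kept without Scramble KD A2 (*Tubb5* 0.29, adjusted p = 0.0609, and *Tuba1b* 0.27, adjusted p = 0.0906), without *Zfp598* KD A2 (0.26, adjusted p = 0.0767, and 0.36, adjusted p = 0.0707), or without the 3 libraries that stood apart (0.26, adjusted p = 0.118, and 0.28, adjusted p = 0.236). *Tubb2a* was at 91.1, 81.6 and 76.1 CPM against 118 to 132 CPM in Scramble siRNA A (-0.58, adjusted p = 0.000252). *Tuba1c* was at 93.8, 133 and 133 CPM and did not pass, except without *Zfp598* KD A1 (0.37, adjusted p = 0.0283). Measured against all 6 Scramble KD libraries, *Tuba1b* (0.22) and *Tubb5* (0.19, adjusted p = 0.0541) did not pass, while *Ttc5* did (0.55, adjusted p = 0.000909). In that setting *Tuba1a* (0.29), *Tubb2b* (0.31) and *Tubb3* (0.33) passed as higher, the opposite sign to their changes against Scramble siRNA A, which did not pass.

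In *Zfp598* siRNA B, *Tuba1a* and *Tubb3* were higher and *Tubb2b*, *Tubb4b* and *Tubb5* were lower than in Scramble siRNA B, 5 of 10 where 26.8% of all tested genes passed (12.4% higher and 14.4% lower). *Tuba1a* was at 645, 639.5 and 611 CPM against 385 to 427 CPM in Scramble siRNA B (0.62, adjusted p = 5.0e-05, edgeR), and *Tubb3* at 459, 542 and 463 CPM against 302 to 325 CPM (0.64, adjusted p = 4.9e-06). *Tubb4b* was at 142, 154 and 139 CPM against 196 to 229 CPM (-0.53, adjusted p = 0.000698). *Tubb5* was at 1719, 1881 and 2013 CPM against 2257 to 2361 CPM (-0.31, adjusted p = 0.00649), a call lost without *Zfp598* KD B1 (-0.25, adjusted p = 0.0544). *Tubb2b* was at 114, 132 and 139 CPM against 141 to 172 CPM (-0.30, adjusted p = 0.0199), a call lost without Scramble KD B1 (-0.28, adjusted p = 0.0669), Scramble KD B2 (-0.23, adjusted p = 0.117) or *Zfp598* KD B1 (-0.21, adjusted p = 0.136). *Ttc5* had a change of 0.14 here (95% interval -0.09 to 0.37), and the difference between its siRNA B and siRNA A changes was -0.37 (adjusted p = 0.0983). Without *Zfp598* KD A1 that difference was -0.49 (adjusted p = 0.00902). Against all 6 Scramble KD libraries *Tubb2a* passed as lower as well (-0.37, adjusted p = 0.00119). In that setting the changes were smaller for *Tuba1a* (0.22, adjusted p = 0.0382), *Tubb3* (0.28, adjusted p = 0.00293), *Tubb4b* (-0.35, adjusted p = 0.00636) and *Tubb5* (-0.19, adjusted p = 0.0478). For *Tubb2b* the change was larger (-0.64, adjusted p = 7.1e-06).

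The changes with the 2 *Zfp598* siRNAs differed for 6 of the 10 mRNAs, where 21.9% of all tested genes differed (10.1% with the siRNA B change higher and 11.9% with it lower). The siRNA B change was the higher for *Tuba1a* (0.72, adjusted p = 0.000473, edgeR), *Tubb3* (0.66, adjusted p = 0.000183) and *Tubb2a* (0.49, adjusted p = 0.00738). It was the lower for *Tubb5* (-0.63, adjusted p = 0.000444), *Tuba1b* (-0.51, adjusted p = 0.0168) and *Tubb4b* (-0.49, adjusted p = 0.0223). The former 3 are neuron-enriched isotypes and the latter 3 broadly expressed isotypes, while *Tubb2b*, also neuron-enriched, had the sign of the latter (-0.26, adjusted p = 0.154) and did not pass. Each of these values contains the difference between the 2 Scramble siRNAs. Compared directly, *Zfp598* siRNA B and siRNA A did not differ in *Tuba1a* (-0.07), *Tubb3* (-0.05), *Tubb2a* (-0.07), *Tuba1b* (-0.14) or *Tubb4b* (-0.12) by edgeR, while *Tubb5* did (-0.38). The call for *Tuba1b* was lost without Scramble KD B1, *Zfp598* KD A2 or *Zfp598* KD B1 (highest adjusted p = 0.0537), and that for *Tubb4b* without Scramble KD B3 or *Zfp598* KD A2, B1 or B3 (highest adjusted p = 0.074). Without the 3 libraries that stood apart, *Tuba1b* (-0.37, adjusted p = 0.116) and *Tubb2a* (0.38, adjusted p = 0.0526) did not pass. *Tuba1c* passed only without Scramble KD A1 (-0.60, adjusted p = 0.0209) or *Zfp598* KD A1 (-0.58, adjusted p = 0.00884).

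The 2 Scramble siRNAs, neither of which targets a gene of this study, differed in 7 of the 10 mRNAs, where 22.7% of all tested genes differed (12.2% lower and 10.4% higher in siRNA B). All 4 neuron-enriched isotypes were lower in Scramble siRNA B: *Tuba1a* by -0.79 (SE 0.0930, adjusted p = 4.2e-06, edgeR), *Tubb3* by -0.71 (adjusted p = 1.7e-06), *Tubb2b* by -0.68 (adjusted p = 1.8e-05) and *Tubb2a* by -0.56 (adjusted p = 8.9e-05). Each of these 4 had its 3 Scramble siRNA B libraries below its 3 Scramble siRNA A libraries, as did 19.3% of all tested genes. *Tuba1b* (0.37, adjusted p = 0.0134), *Tubb4b* (0.37, adjusted p = 0.0137) and *Tubb5* (0.25, adjusted p = 0.0303) were higher in Scramble siRNA B. These 3 were the less firm calls. *Tuba1b* did not pass without Scramble KD A2 (0.23, adjusted p = 0.075) or B1 (0.33, adjusted p = 0.0636), *Tubb4b* without Scramble KD A1 (0.35, adjusted p = 0.0513) or B3 (0.29, adjusted p = 0.0832), and *Tubb5* without any single Scramble KD library, A1, A2, A3, B1, B2 or B3 (0.22 to 0.26, highest adjusted p = 0.0876).

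Within *Fmr1* KD, 8 of the 10 mRNAs differed between the siRNAs, where 24.3% of all tested genes did (13.3% higher and 11.1% lower in siRNA B), 6 higher and 2 lower in siRNA B. *Tubb5* (0.67, adjusted p = 3.3e-06, edgeR), *Tubb2b* (0.58, adjusted p = 8.0e-05), *Tuba1b* (0.46, adjusted p = 0.00223), *Tuba1a* (0.31, adjusted p = 0.0192), *Tubb2a* (0.31, adjusted p = 0.0123) and *Tubb4b* (0.29, adjusted p = 0.0494) were higher in siRNA B, and *Tuba4a* (-0.76, adjusted p = 0.00198) and *Ttc5* were lower. *Tuba4a* was at 11.6, 12.3 and 10.8 CPM in *Fmr1* siRNA A and at 8.23, 5.53 and 6.66 CPM in *Fmr1* siRNA B. The *Tuba1a* call was lost without *Fmr1* KD A1, A2, B2 or B3 (highest adjusted p = 0.0995), the *Tubb2a* call without *Fmr1* KD A1, A3 or B2 (highest adjusted p = 0.0565), and the *Tubb4b* call without any 1 of 13 libraries (highest adjusted p = 0.14), all but Scramble KD A2 and B3 and *Zfp598* KD A1, A2 and A3. Within *Zfp598* KD, *Tubb2b* (-0.94, adjusted p = 4.2e-07), *Tubb5* (-0.38, adjusted p = 0.00106) and *Ttc5* (-0.45, adjusted p = 0.00408) were lower in siRNA B, 3 of 10 where 35.3% of all tested genes differed (19.7% lower in siRNA B). The *Ttc5* difference was -0.15 without the 3 libraries that stood apart (adjusted p = 0.407). *Tuba1c* passed only without *Zfp598* KD A1 (-0.38, adjusted p = 0.0143) and *Tubb4b* only without *Zfp598* KD A3 (-0.26, adjusted p = 0.0217).

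Other neuronal genes and genes of cell division moved between the same groups. Of 19 tested neuronal genes, 10 were lower and 1 higher in Scramble siRNA B than in siRNA A, where 12.2% of all tested genes were lower and 10.4% higher, with a median log2 difference of -0.50. The largest were *Chgb* (-1.58), *Nefh* (-1.26), *Chga* (-1.19) and *Gap43* (-0.87), and the sum over the list was 5412 to 6484 CPM in Scramble siRNA A and 4068 to 4568 CPM in Scramble siRNA B. Of 24 proliferation genes, 23 were higher in Scramble siRNA B, with a median of 0.84 (*Mcm5* 1.41, *Mcm3* 1.26, *Aurkb* 1.15 and *Rrm2* 1.11), and their sum was 1327 to 1473 CPM against 2492 to 2845 CPM. In the same comparison *Tuba1a*, *Tubb2a*, *Tubb2b* and *Tubb3* were lower and *Tuba1b*, *Tubb4b* and *Tubb5* higher, while *Tuba1c* (0.21) did not pass. Against the same-letter Scramble siRNA, 7 neuronal genes were lower and 0 higher in *Fmr1* siRNA A, where 13.6% of all tested genes were lower and 10% higher. In *Fmr1* siRNA B 6 neuronal genes were higher and 1 lower, where 11.3% of all tested genes were called in each direction. The sum over the neuronal list was not higher there, at 3717 to 4381 CPM in *Fmr1* siRNA B and 4068 to 4568 CPM in Scramble siRNA B, with overlap. Of 11 tested sympathetic neuroblast markers, 8 were lower in *Fmr1* siRNA A (median -0.70) and 6 higher in *Fmr1* siRNA B (median 0.33), and their sums were 1227 to 1326 CPM in Scramble siRNA A, 724 to 843 in *Fmr1* siRNA A, 726 to 880.0 in Scramble siRNA B and 822 to 1016 in *Fmr1* siRNA B. The proliferation sums were below those of the same-letter Scramble siRNA in both *Fmr1* siRNA groups and in *Zfp598* siRNA B (1881 to 1991 CPM). In *Zfp598* siRNA A (1815 to 1946 CPM) they were above those of Scramble siRNA A. Within *Fmr1* KD 23 of 24 proliferation genes were also higher in siRNA B, where 13.3% of all tested genes were higher. Their sum was 1249 to 1296 CPM in siRNA A and 2163 to 2318 CPM in siRNA B, while the neuronal sums overlapped (3955 to 4258 against 3717 to 4381 CPM). Within *Zfp598* KD 11 proliferation genes were higher and 4 lower in siRNA B, where 35.3% of all tested genes differed and 19.7% were lower. Their median was 0.25, the proliferation sums overlapped (1815 to 1946 against 1881 to 1991 CPM) and the neuronal sums did not (5267 to 7542 against 4014 to 4352 CPM). The part of these genes, or of the cell states they stand for, in the tubulin differences was not tested.

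**Figure D3:**
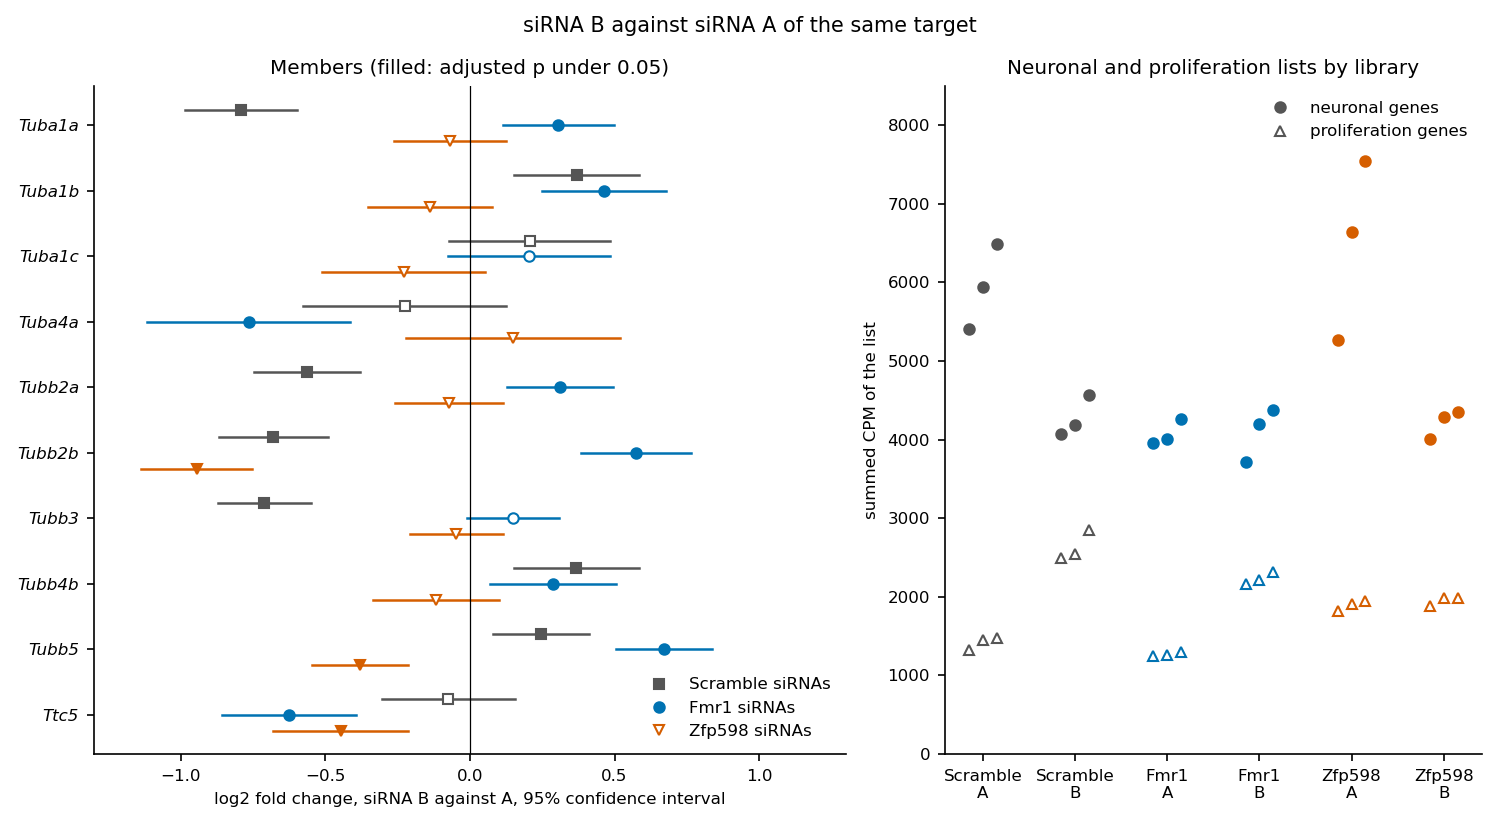
Left, log2 difference of siRNA B from siRNA A (x axis) for the 10 mRNAs (y axis) within each of the 3 conditions, with 95% intervals from edgeR and filled symbols for an adjusted p under 0.05. Right, summed CPM of the neuronal and proliferation lists in each library by siRNA group. *Tuba1a*, *Tubb2a*, *Tubb2b* and *Tubb3* are below 0 within Scramble KD, and the proliferation sums of Scramble siRNA B (2492 to 2845 CPM) lie above those of siRNA A (1327 to 1473 CPM).

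None of the changes against Scramble KD was over 2-fold. With that added minimum 0 of the 10 mRNAs were called in *Fmr1* KD (1% of all tested genes), *Zfp598* KD (0.464%), *Fmr1* siRNA A (3.61%), *Fmr1* siRNA B (4.07%), *Zfp598* siRNA A (1.42%) and *Zfp598* siRNA B (5.1%), and 0 between the siRNAs within Scramble KD (3.61%), *Fmr1* KD (3.99%) and *Zfp598* KD (7.57%). The differences of the changes passed it for 2 of the 10 with *Fmr1*, *Tubb2b* and *Tuba1a* (7.11% of all tested genes), and 0 with *Zfp598* (7.4%).

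Summed over the 9 tubulin genes, the level was lowest in *Fmr1* siRNA A at 3026 ± 57.0 CPM (SD, n = 3). It was 4318 ± 231 in Scramble siRNA A, 4249 ± 15.7 in Scramble siRNA B, 4202 ± 208 in *Fmr1* siRNA B, 4860.1 ± 247 in *Zfp598* siRNA A and 4039.9 ± 194 in *Zfp598* siRNA B. The deficit of *Fmr1* siRNA A was mostly in the β genes, which summed to 2010.1 ± 41.0 CPM against 3008 ± 62.6 CPM in Scramble siRNA A, while the α genes summed to 1016 ± 22.0 against 1310.0 ± 169 CPM. The ratio of α to β counts was 0.495 to 0.513 in *Fmr1* siRNA A and 0.394 to 0.486 in Scramble siRNA A, without overlap. It was 0.433 to 0.474 in *Fmr1* siRNA B and 0.472 to 0.521 in *Zfp598* siRNA B, both above the 0.367 to 0.399 of Scramble siRNA B. In *Zfp598* siRNA A the ratio was 0.409 to 0.427, inside the Scramble siRNA A range. These sums are descriptions and carry no test.

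The isotype mixture also differed between the Scramble siRNAs. As a share of α-tubulin mRNA per kilobase, *Tuba1a* made up 68.7% ± 3.20 in Scramble siRNA A and 49.98% ± 1.74 in Scramble siRNA B, with *Tuba1b* at 24.1% and 39.5%. In the 4 knockdown groups *Tuba1a* was between these, at 61.0% to 63.0%. Of β-tubulin mRNA, *Tubb3* was 17.5% ± 0.559 in Scramble siRNA A, 10.3% ± 0.466 in Scramble siRNA B and 22.8% ± 0.492 in *Fmr1* siRNA A, its highest share. *Tubb5* was 59.8% ± 0.387 in *Fmr1* siRNA A and 72.8% ± 0.489 in Scramble siRNA B, the lowest and highest of the 6 groups. *Tubb4b* stayed between 7.21% and 10.5%, and *Tuba4a* between 0.232% and 0.494% of its class. The division within the α class is the one most exposed to reads that match more than one gene.

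**Figure D4:**
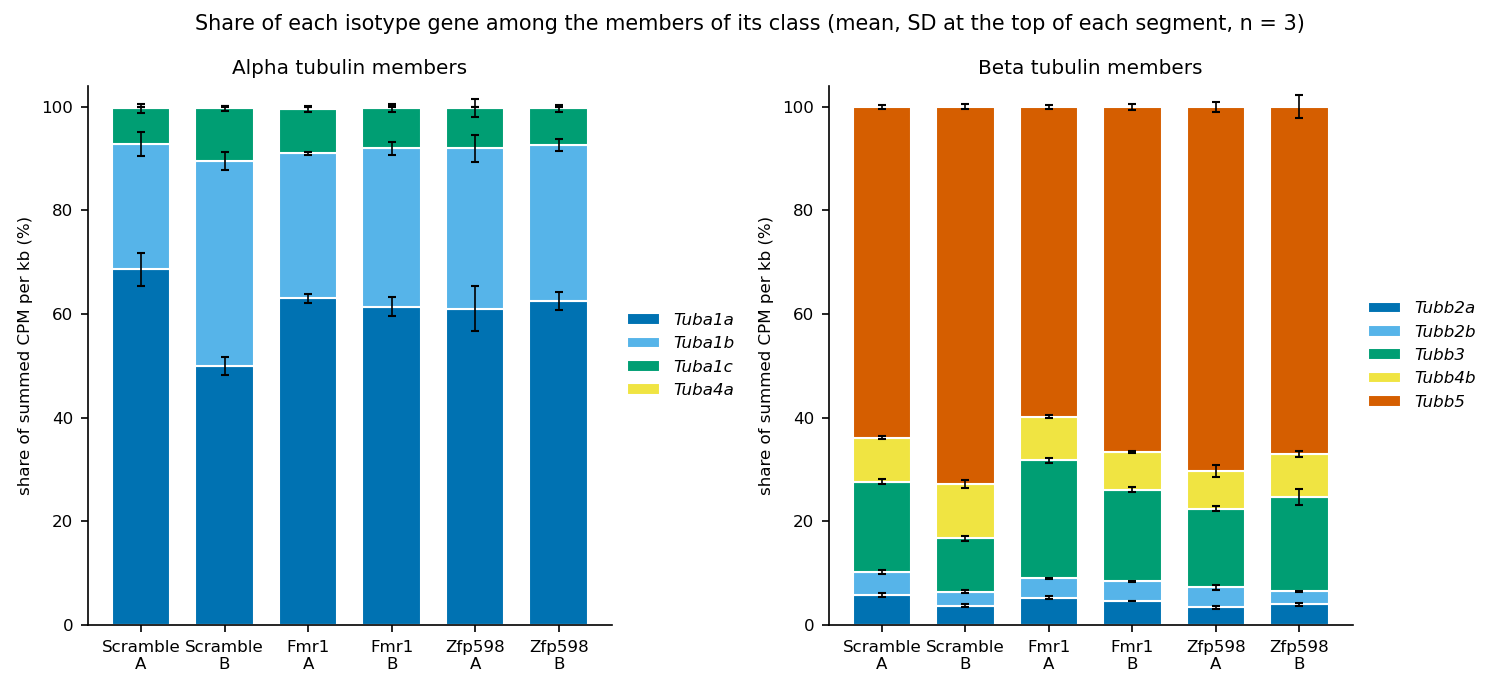
Share of each gene in the summed CPM per kilobase of the α-tubulin (left) and β-tubulin (right) members (y axis, percent) in the 6 siRNA groups (x axis); stacked bars are means and the error bar at the top of each segment is the SD of that share (n = 3). *Tuba1a* falls from 68.7% of the α total in Scramble siRNA A to 49.98% in Scramble siRNA B, and *Tubb5* is the largest β segment in every group, at 59.8% to 72.8%.

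Downstream of TTC5, the genes for SCAPER and the subunits of the CCR4-NOT deadenylase were measured in all libraries, and 11 of 11 passed the filter. With *Fmr1* KD over both siRNAs, where 6.54% of all tested genes passed, only *Cnot6l*, a catalytic deadenylase subunit, passed, as lower (-0.53, SE 0.114, adjusted p = 0.00804, edgeR). It was lower with each siRNA, by -0.58 (adjusted p = 0.000847) for siRNA A and -0.49 (adjusted p = 0.00366) for siRNA B. Its close relative *Cnot6* (-0.67, adjusted p = 5.2e-05) and *Cnot7*, a catalytic subunit of another type (-0.31, adjusted p = 0.0157) were lower in *Fmr1* siRNA B. *Scaper*, the adaptor between TTC5 and the deadenylase, had a median of 36.8 CPM over the 18 libraries and a change of -0.24 (adjusted p = 0.262) with *Fmr1* KD and -0.37 (adjusted p = 0.118) with *Zfp598* KD. It was lower in *Zfp598* siRNA B (-0.58, adjusted p = 0.00229), where *Ttc5* had a change of 0.14 that did not pass. In *Zfp598* siRNA A, *Cnot8* was higher (0.41, adjusted p = 0.0128). *Cnot1*, the scaffold of the complex, had a median of 553 CPM and was 0.35 higher in Scramble siRNA B than in siRNA A (adjusted p = 0.0232). The median change of the 11 genes was -0.04 with *Fmr1* KD and 0.04 with *Zfp598* KD, where 0 passed by edgeR or DESeq2 and 3 had an unadjusted p under 0.05. With *Zfp598* KD 1.96% of all tested genes passed by edgeR. Without the 3 libraries that stood apart 0 of the 11 passed in *Zfp598* siRNA A, and in *Zfp598* siRNA B 3 did.

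Outside the 10 genes, 11 further tubulin genes were looked up and 6 passed the filter. *Tubal3* was at 0 in all 18 libraries, and *Tuba3a* (0 to 10 counts), *Tuba3b* (0 to 1), *Tubb1* (0 to 4) and *Tubb4a* (0 to 2) were too low to be tested. Of the 6 tested, 0 passed in either knockdown over both siRNAs by edgeR, while *Fmr1* KD had 3 at an unadjusted p under 0.05 and 1 called by DESeq2, and for *Zfp598* KD these were 2 and 0. Of all tested genes, 6.54% passed by edgeR with *Fmr1* KD and 1.96% with *Zfp598* KD. *Tube1*, ε-tubulin of centrioles, was lower in *Fmr1* siRNA A (-0.34, adjusted p = 0.0389), *Fmr1* siRNA B (-0.75, adjusted p = 5.7e-05) and *Zfp598* siRNA B (-0.54, adjusted p = 0.0013), and higher in *Zfp598* siRNA A (0.67, adjusted p = 0.00081) and in Scramble siRNA B against A (0.85, adjusted p = 1.8e-05). *Tubb6*, a β-tubulin of low level (31.8 to 73.5 CPM), was lower in *Fmr1* siRNA B (-0.70, adjusted p = 9.1e-05) and *Zfp598* siRNA B (-0.94, adjusted p = 3.6e-06), and it was 0.97 higher in their control, Scramble siRNA B, than in Scramble siRNA A. *Tuba8* was lower in *Fmr1* siRNA A (-1.14, adjusted p = 3.9e-05), in *Zfp598* siRNA B (-0.62, adjusted p = 0.011) and in Scramble siRNA B against A (-0.61, adjusted p = 0.00937). *Tubg1*, γ-tubulin of the centrosome, was lower in *Zfp598* siRNA B (-0.44, adjusted p = 0.0355).

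**Figure D5:**
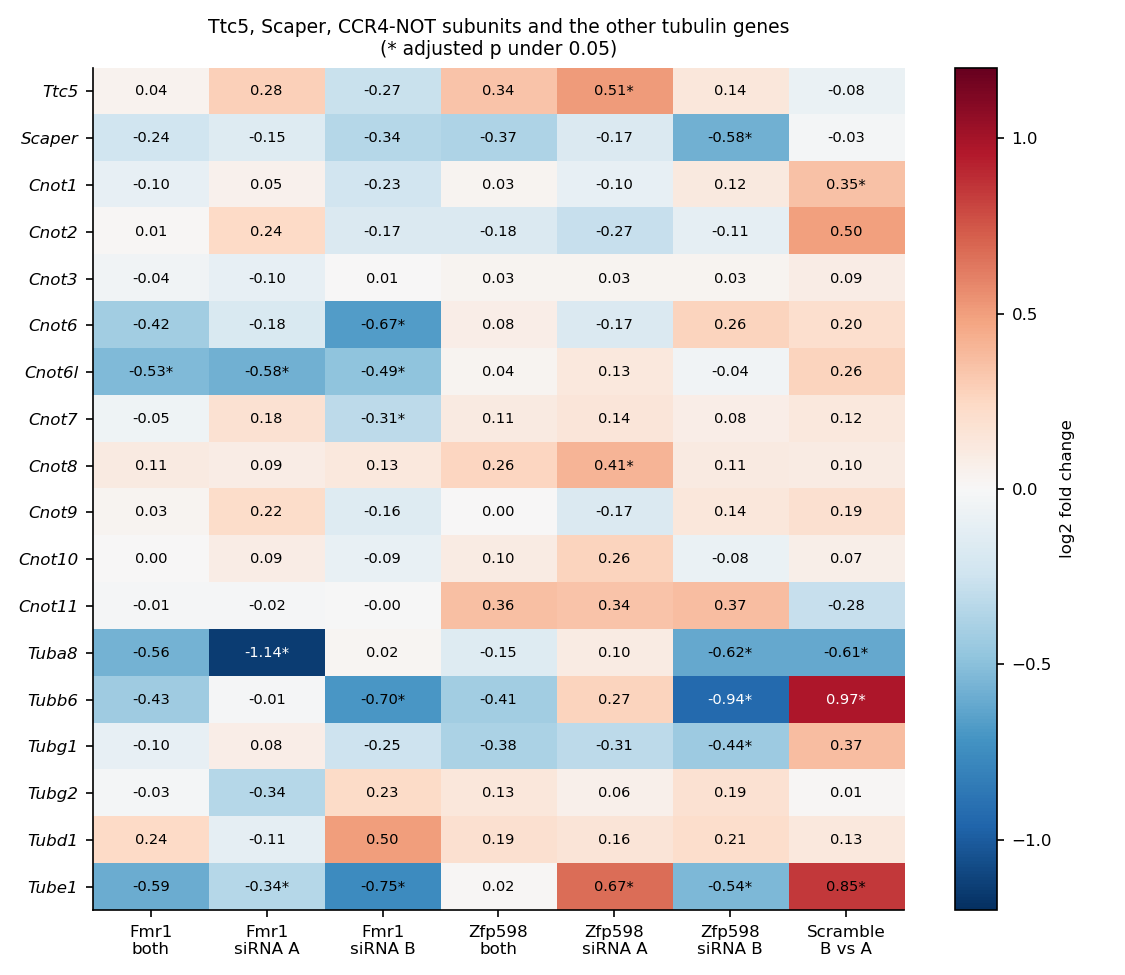
Log2 fold change, printed and coloured in each cell, of *Ttc5*, *Scaper*, the 10 *Cnot* genes and the 6 other tested tubulin genes (rows) in 7 comparisons (columns); an asterisk marks an adjusted p under 0.05 by edgeR. *Cnot6l* is lower in the *Fmr1* columns and *Tube1* changes in 5 of the 7 columns, with both signs.

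New tubulin chains need a dedicated folding machinery. Its 21 genes, for the CCT chaperonin, prefoldin and the tubulin cofactors, were all tested. With *Fmr1* KD, where 6.54% of all tested genes passed, 2 of the 21 passed, *Cct3* as higher (0.34, adjusted p = 0.00745, edgeR) and *Tbce* as lower (-0.37, adjusted p = 0.0387). *Cct3* was also higher with each *Fmr1* siRNA (0.30 for A and 0.38 for B). With *Zfp598* KD, where 1.96% of all tested genes passed, 1 of the 21 passed, the prefoldin subunit *Pfdn1* (-0.57, adjusted p = 0.0341). By single siRNA, 4 passed in *Fmr1* A, 6 in *Fmr1* B, 4 in *Zfp598* A and 8 in *Zfp598* B, and the Scramble siRNAs differed in 3. The shares of all tested genes called in these 5 comparisons were 23.6%, 22.7%, 11.9%, 26.8% and 22.7%. The 3 were the cofactors *Tbcc* (-1.10), *Tbcd* (-0.62) and *Tbca* (-0.32), all lower in siRNA B. Without the 3 libraries that stood apart 0 passed in *Zfp598* A.

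Microtubule-associated and dynamics proteins bind, stabilise or sever the polymer. Of 29 tested genes, 0 passed with *Fmr1* KD over both siRNAs (7 at an unadjusted p under 0.05, 1 by DESeq2), where 6.54% of all tested genes did. With *Zfp598* KD, where 1.96% of all tested genes passed, 1 of the 29 did (*Map1a*, -0.51, adjusted p = 0.0342, edgeR). In *Fmr1* siRNA A 13 were lower and 1 higher, where 13.6% of all tested genes were lower and 10% higher, led by *Tppp* (-1.11), *Mapt*, which encodes tau (-0.93), *Dclk1* (-0.86) and *Tppp3* (-0.79). In *Fmr1* siRNA B 3 were lower and 2 higher (*Map7* 1.83 and *Stmn4* 0.52), in *Zfp598* siRNA A 7 lower and 2 higher, and in *Zfp598* siRNA B 7 lower and 4 higher, where 22.7%, 11.9% and 26.8% of all tested genes were called, respectively. Without the 3 libraries that stood apart *Zfp598* siRNA A had 3 calls in place of 9, and *Zfp598* siRNA B had 17 in place of 11. Between the Scramble siRNAs 10 were lower in siRNA B, led by *Stmn4* (-1.30) and *Stmn3* (-1.05), stathmins that bind free tubulin dimers. In the same comparison 4 were higher, led by the spindle genes *Tpx2* (0.99) and *Nedd1* (0.87), where 12.2% of all tested genes were lower and 10.4% higher. Of 16 enzymes that modify tubulin, 0 passed with either knockdown over both siRNAs by edgeR (5 with *Fmr1* KD and 0 with *Zfp598* KD at an unadjusted p under 0.05, and 2 and 0 by DESeq2), 3 in *Fmr1* siRNA A, 4 in *Fmr1* siRNA B, 3 in *Zfp598* siRNA A and 3 in *Zfp598* siRNA B, where 23.6%, 22.7%, 11.9% and 26.8% of all tested genes passed. Scramble siRNA B differed from A in 7 of the 16 enzymes, where 22.7% of all tested genes differed, 6 lower (*Ttll11*, *Ttll7* at -0.75 and *Vash1* at -0.38 among them) and 1 higher (*Ttll4* 0.23).

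Over the 18 libraries and 12100 genes with a mean of at least 50 counts, the genes whose log2 CPM followed *Ttc5* most closely were *Adh5* (Pearson r = 0.929), *Rundc1* (0.914), *Mrpl33* (0.908), *Man2b1* (0.904) and *Jtb* (0.900). Those closest to the mean of the 9 tubulin genes were *Micu2* (0.923), *Fbxo41* (0.923), *Ndrg2* (0.916), *Tkt* (0.916) and *Ssh1* (0.915). That mean does not stand for a pattern shared by the 9 genes. Among them r ran from -0.57 (*Tuba4a* with *Tubb5*) to 0.86 (*Tuba1a* with *Tubb3*). These are descriptions over libraries that share groups of 3. The 10 genes themselves were left out of both rankings, so none of them could appear. Neither list holds a further tubulin gene or a CCR4-NOT gene.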

How the data were processed

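Tubulin and *Ttc5* mRNA levels were taken from 18 RNA-seq libraries of N2A cells harvested 72 h after siRNA transfection, 3 for each of 6 siRNAs. Per the labels and the study's methods, the authors trimmed reads with Trim Galore, checked them with FastQC, used STAR for alignment to GRCm39, and obtained counts per gene from featureCounts. The versions, the annotation, the strand setting and the treatment of reads with several matches are not given in the sources used here. The deposited values are raw counts per Ensembl gene, not normalized, with 55414 features, of which 18139 were at 0 in all libraries. Symbols and exon lengths came from GENCODE M39, which annotated 54749 of the features.

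Counts were tested with edgeR 4.0.16 (R 4.3.3, limma 3.58.1), quasi-likelihood F tests with TMM scaling and filterByExpr at a minimum count of 10, which kept 17901 features. The fit of 3 conditions gave the pooled comparisons and the fit of 6 siRNA groups all others. P-values were adjusted over all tested features by the Benjamini-Hochberg method, and an adjusted p under 0.05 was called. Two-sided exact permutation tests used the mean log2(CPM + 0.5) of 6 against 6 libraries (924 splits), without regard to the siRNA of a library. With 3 against 3 libraries such a test cannot go below 0.1 and was not run. All 10 genes are named in each comparison. From each further list, all genes of the decay factors and other tubulins may be named, and otherwise at most 4 called genes with the largest change. The genes and lists were chosen with earlier results of these data known. The alternatives were DESeq2 1.42.0, other scaling, no low-count filter, a replicate block, the siRNA letter as a term, all 6 Scramble KD libraries as controls, counts summed per siRNA, a 2-fold minimum and leaving out each library. Leaving out 3 libraries that stood apart was added after seeing the data. Scripts were tested on simulated counts. Depth was 7674724 to 15414590 counts per library. No 2 libraries of a group agreed within sampling noise (chi-square per degree of freedom at least 2.78 over 18 pairs). Some marker genes are not reported here.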

Additional observations from a re-analysis of the deposited data

Results flagged for a closer look

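The summed level of the 9 tubulin genes in Scramble KD A1 was 4566 CPM, while the other 5 Scramble KD libraries lay between 4109 and 4278 CPM. Its gap to the nearest library was 0.631 of the whole range, just above Dixon's 95% critical value for 6 libraries. This was 1 of 42 sets of libraries examined for such a gap, and chance alone gives about 1 in 20.

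The change with *Fmr1* KD differed between siRNA B and siRNA A, by the interaction test of edgeR, for *Tubb2b* (log2 difference 1.25, adjusted p = 8.0e-07), *Tuba1a* (1.10, adjusted p = 4.8e-06), *Tubb2a* (0.88, adjusted p = 3.0e-05), *Tubb3* (0.86, adjusted p = 9.4e-06), *Tubb5* (0.42, adjusted p = 0.0093) and *Ttc5* (-0.55, adjusted p = 0.0145). The change with *Zfp598* KD differed for *Tuba1a* (0.72), *Tubb3* (0.66), *Tubb2a* (0.49), *Tubb5* (-0.63), *Tuba1b* (-0.51) and *Tubb4b* (-0.49). Both sets of differences contain the difference between the 2 Scramble siRNAs, and their cause was not tested.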

How the results depend on the processing

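Of 740 values for single genes under the alternatives that keep all libraries of a comparison or leave out the 3 that stood apart, 695 kept their direction and their side of the threshold, 14 lost and 10 gained a call, 18 changed sign without a call in either setting, and 3 changed sign with a call. Those 3 were *Tuba1a* (0.29), *Tubb2b* (0.31) and *Tubb3* (0.33) in *Zfp598* siRNA A when set against all 6 Scramble KD libraries. Of 1980 values that leave out 1 library, 53 lost and 13 gained a call, 53 changed sign without a call in either setting, and 0 changed sign with a call.

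No change of the 10 mRNAs against Scramble KD, and no difference between siRNAs of a condition, was over 2-fold, so with a 2-fold minimum the number called was 0 in each, and it was 2 (*Tubb2b* and *Tuba1a*) for the difference of the *Fmr1* changes and 0 for that of the *Zfp598* changes. Genes of any kind called over 2-fold numbered 179 for the *Fmr1* knockdown and 83 for the *Zfp598* knockdown, 647 and 728 in *Fmr1* siRNA A and B, 255 and 913 in *Zfp598* siRNA A and B, 647, 714 and 1355 between the siRNAs of Scramble, *Fmr1* and *Zfp598* KD, and 1273 and 1325 for the differences of the changes.

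With the siRNA letter as a term, *Fmr1* KD had 2 of the 10 called (*Tubb5*, -0.43, adjusted p = 0.0475, beside *Tubb4b*) and 1808 genes in place of 1170, and *Zfp598* KD had 789 genes in place of 351. DESeq2 gave 1761 and 929 genes. With counts summed per siRNA both had 0 genes, and *Fmr1* KD 0 of the 10; this leaves 2 against 2. Against all 6 Scramble KD libraries 3 of the 10 were called in *Fmr1* siRNA B, and 3249 genes in place of 2138 in *Zfp598* siRNA A. Without the 3 libraries that stood apart *Zfp598* siRNA A had 1 of the 10 and 1037 genes, *Zfp598* KD 1225 genes, and *Zfp598* siRNA B against A 3024 genes in place of 6311.

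Leaving out 1 library at a time, the number of the 10 called ran from 1 to 2 for the *Fmr1* knockdown and stayed at 0 for the *Zfp598* knockdown. It ran from 5 to 6 and 4 to 6 in *Fmr1* siRNA A and B, 2 to 5 and 3 to 5 in *Zfp598* siRNA A and B, 5 to 7, 5 to 8 and 3 to 4 between the siRNAs of Scramble, *Fmr1* and *Zfp598* KD, 6 to 7 and 4 to 8 for the differences of the changes, and 9 to 10 over all groups. Genes called ran from 656 to 1425 for the *Fmr1* knockdown, 106 to 887 for the *Zfp598* knockdown, 2989 to 5062 and 3080.0 to 5067 in *Fmr1* siRNA A and B, 1082 to 4699 and 3574 to 5711 in *Zfp598* siRNA A and B, 2766 to 5101, 3220.0 to 5262 and 4602 to 7896 between siRNAs, 3131 to 4787 and 3032 to 5267 for the differences of the changes, and 10532 to 12932 over all groups.

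A replicate block changed no count of the 10 mRNAs, with 1 for the *Fmr1* knockdown and 0 for the *Zfp598* knockdown, and gave 201 genes in *Zfp598* KD. Same-numbered libraries had correlations of deviations from -0.399 to 0.338 over 45 pairs, and 11 of 18 libraries correlated best with their own number. Whether the replicate numbers pair the libraries was not tested. Where a cause is not given here it was not tested. Depth limits *Tuba4a* most, at 48 to 181 counts.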
